A study of Mus musculus with 12 samples.

Results

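The immediate-early genes described here are 10 genes: the AP-1 genes Fos, Fosb, Jun and Junb, the small MAF gene Maff, Atf3, the zinc finger genes Egr1 and Egr2, Ier2, and Zfp36. They were found by their gene symbol in the platform annotation, which names 19057 genes on the array, and they have 12 of its 45281 probes. Junb and Maff have 2 probes each and the other genes 1 each. A probe was tested where every array of TG or every array of WT detected it, with a detection p under 0.05. This held for 8 member probes, 1 for each of 8 genes, and for 15708 probes of the array in all. Fosb and Ier2 were not tested.

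The samples were skeletal muscle of transgenic (TG) mice that overexpress Nur77, the nuclear receptor encoded by Nr4a1, in skeletal muscle, and of wild-type (WT) mice. The sample titles abbreviate the muscle as Gastr, and all mice were fasted overnight. RNA of 6 mice of each genotype was pooled by 2, which gave 3 TG pools and 3 WT pools, and each pool was run on 2 Illumina chips, once on each, which gave 12 arrays. The sources used here do not give the promoter that drives the transgene, the transgenic line, or the sex and age of the mice. Since the arrays of a pool share its RNA, per the labels, the pool was the replicate (n = 3 per genotype), and this number limits the precision.

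Immediate-early genes are transcribed within minutes of a stimulus from promoters that already hold their activators, with no need for new protein. Growth factors, calcium, contraction and stress act on them through MAP kinases, the serum response factor SRF with its ETS partners, and CREB. Their proteins are themselves mostly transcription factors. FOS and JUN proteins pair to form AP-1, the EGR proteins bind GC-rich sites, ATF3 and the small MAF proteins pair with other bZIP proteins, and Zfp36 encodes tristetraprolin, an RNA-binding protein that speeds the decay of mRNAs with AU-rich elements. In muscle they are known to respond to exercise, injury and handling of the tissue. Nur77 is itself the product of an immediate-early gene.

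Promoters of members whose RefSeq window held one of the motifs below are shown, because factors of the early response are known to bind such sites. RefSeq windows (GRCm38.p6) were at hand for 8 of the 10 genes, 14 windows in all, and the 250 bases before each start were searched on both strands. The motifs were the cyclic AMP response element (TGACGTCA), the AP-1 site (TGACTCA, or TGAGTCA on the other strand), the NBRE bound by NR4A monomers (AAAGGTCA), the CArG box bound by SRF, the EGR site (GCGTGGGCG) and the TATA box (TATAAA). No motif overlapped another in these windows. Capitals mark the matches.
Maff, chr15:79347270-79347519, plus strand: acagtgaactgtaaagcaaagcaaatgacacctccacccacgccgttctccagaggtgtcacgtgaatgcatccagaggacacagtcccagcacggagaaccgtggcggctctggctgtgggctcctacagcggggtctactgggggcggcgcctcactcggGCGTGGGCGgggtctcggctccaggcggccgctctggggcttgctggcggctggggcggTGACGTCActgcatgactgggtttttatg
Egr2, chr10:67537619-67537868, plus strand: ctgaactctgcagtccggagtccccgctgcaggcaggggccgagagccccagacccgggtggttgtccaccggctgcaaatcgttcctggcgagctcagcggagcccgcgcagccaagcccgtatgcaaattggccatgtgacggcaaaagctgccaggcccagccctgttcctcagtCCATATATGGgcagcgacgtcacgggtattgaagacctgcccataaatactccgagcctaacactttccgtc
Zfp36, chr7:28379229-28379478, minus strand: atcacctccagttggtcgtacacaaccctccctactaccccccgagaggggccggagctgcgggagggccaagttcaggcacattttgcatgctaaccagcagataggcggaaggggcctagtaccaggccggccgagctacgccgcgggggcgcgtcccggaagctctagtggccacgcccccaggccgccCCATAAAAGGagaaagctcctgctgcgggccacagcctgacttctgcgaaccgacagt
Fos, chr12:85473640-85473889, plus strand: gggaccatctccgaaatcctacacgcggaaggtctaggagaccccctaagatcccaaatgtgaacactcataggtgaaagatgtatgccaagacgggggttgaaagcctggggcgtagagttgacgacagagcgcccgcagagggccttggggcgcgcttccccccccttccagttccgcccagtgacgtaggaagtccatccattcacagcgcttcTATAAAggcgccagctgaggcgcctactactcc

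The Maff window, the second of 3 for this gene, held an EGR site and a cyclic AMP response element, which were found in 0.536% and 1.55% of the 32851 windows of this length in the table. A CArG box, present in 1.47% of windows, lay at 2 positions near Egr2, 1 of them inside 3 overlapping windows of which 1 is shown, and in the Zfp36 window. The Fos window held a TATA box (12.4% of windows). The windows of Fosb, Jun, Junb and Atf3 held none of the motifs, and no member window held the NBRE (1.34% of windows) or the AP-1 site (4.46%). These are matches of letters and were not tested for binding.

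Arrays that stood apart bear on all results below. The 2 arrays of a pool differed by a root mean square of 0.197 to 0.267 log2 units over the tested probes in the TG pools, 0.339 in WT1, and 0.224 and 0.231 in WT2 and WT3. The array labelled WT1 on chip 2 lay closer to the chip 2 array of WT2 (0.314) and the chip 1 array of WT3 (0.319) than to the chip 1 array of its own pool (0.339). The consensus correlation of the 2 arrays of a pool was 0.138, with genotype and chip fitted. Results of the tested members are therefore also given with WT1 taken from chip 1 only, a setting chosen after the data were seen. The 6 skeletal muscle markers were all detected, with summed signals of 265494 to 281193 in TG and 231609 to 259078 in WT, and 1 of them, Myh4, was called lower in TG (log2 -0.22, adjusted p = 0.0359 by limma). This call held in 7 of 21 alternatives, and Myh4 measured -0.11 in the authors' deposited table and -0.12 under 75th percentile scaling. The Nr4a1 probe was detected on 0 of 12 arrays, with signals from -16.2 to 8.2, and gave no check of the genotype labels. Its position relative to the transgene is unknown here.

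Of the 8 tested members, 1 was lower in TG muscle, 0 were higher and 7 did not pass an adjusted p of 0.05 by limma. Over all tested probes, 25.8% passed this threshold, 11.3% higher and 14.6% lower in TG, and with 1 probe per gene 28%, 12.1% higher and 15.9% lower. The count of 1 in 8 was not above these shares. The 1 called gene, Maff, passed the detection filter only through WT, where it was higher. Without a filter on dim probes 1 of 10 members was called, beside 8.64% of all probes. The count was 2 of 8 with WT1 from chip 1 only (27.7% of tested probes called) and with TG3 and WT1 both left out (30.3%). These last 2 settings were chosen after the data were seen. The log2 differences of the 8 members ran from -0.36 to 0.99 with a median of 0.16, and 6 were above 0. The median over all 9131 tested genes was -0.02. Bulk RNA cannot tell a change in the number of cells of a type from a change in RNA per cell.

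**Figure D1:**
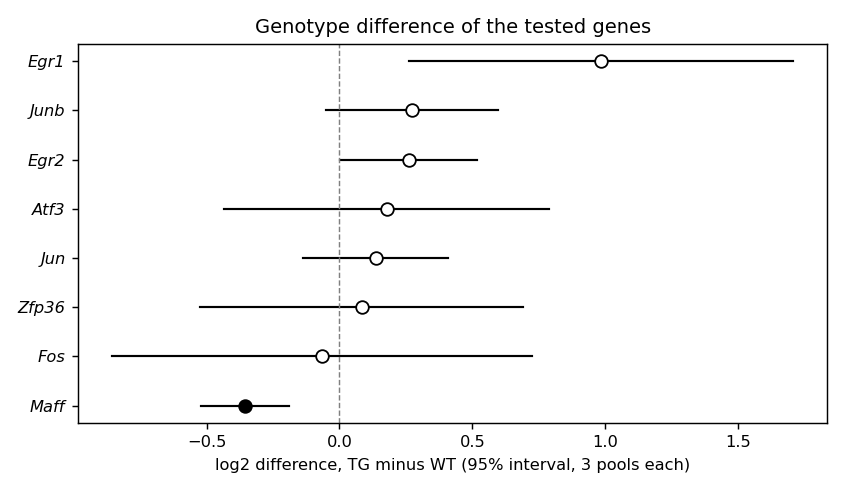
Difference between genotypes in log2 units (TG minus WT, x axis) for the 8 tested immediate-early genes, with the moderated 95% interval from 3 TG and 3 WT pools; the filled point passed an adjusted p of 0.05 by limma. Maff lies below 0 with an interval from -0.52 to -0.19, and Egr1 has the highest value, 0.99.

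Maff, which encodes a small MAF protein without a transactivation domain that pairs with CNC and other bZIP proteins, measured lower in TG muscle. Its probe had signals of 21.3 and 15.4 on the 2 arrays of TG1, 29.1 and 12.6 in TG2 and 19.9 and 27.2 in TG3, against 56.3 and 49.4 in WT1, 44.9 and 48.1 in WT2 and 50.2 and 24.1 in WT3 (chip 1 first in each pair). Averaged per pool, the TG pools lay below all WT pools, while among single arrays 2 TG values lay above the WT3 value of chip 2. The pool means averaged 20.9 ± 2.60 in TG and 45.5 ± 7.90 in WT (SD, n = 3 pools each), a signal ratio of 0.46. The log2 difference was -0.36 ± 0.07 (SE, adjusted p = 0.0107 by limma). The background correction used here adds an offset to dim probes such as this one, and the difference was -0.73 with neqc, -1.13 with no background correction and signals floored at 10 and -1.11 in the authors' deposited table. The probe missed the threshold on chip 2 alone (-0.30, adjusted p = 0.161) and without WT2 (-0.34, adjusted p = 0.0514), and passed it with WT1 from chip 1 only (-0.38, adjusted p = 0.0123). The probe was detected on 5 of 6 TG arrays and 6 of 6 WT arrays. It was thus tested only through WT, where it was higher, and its values are a description. The other Maff probe was detected on 0 of 12 arrays.

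**Figure D2:**
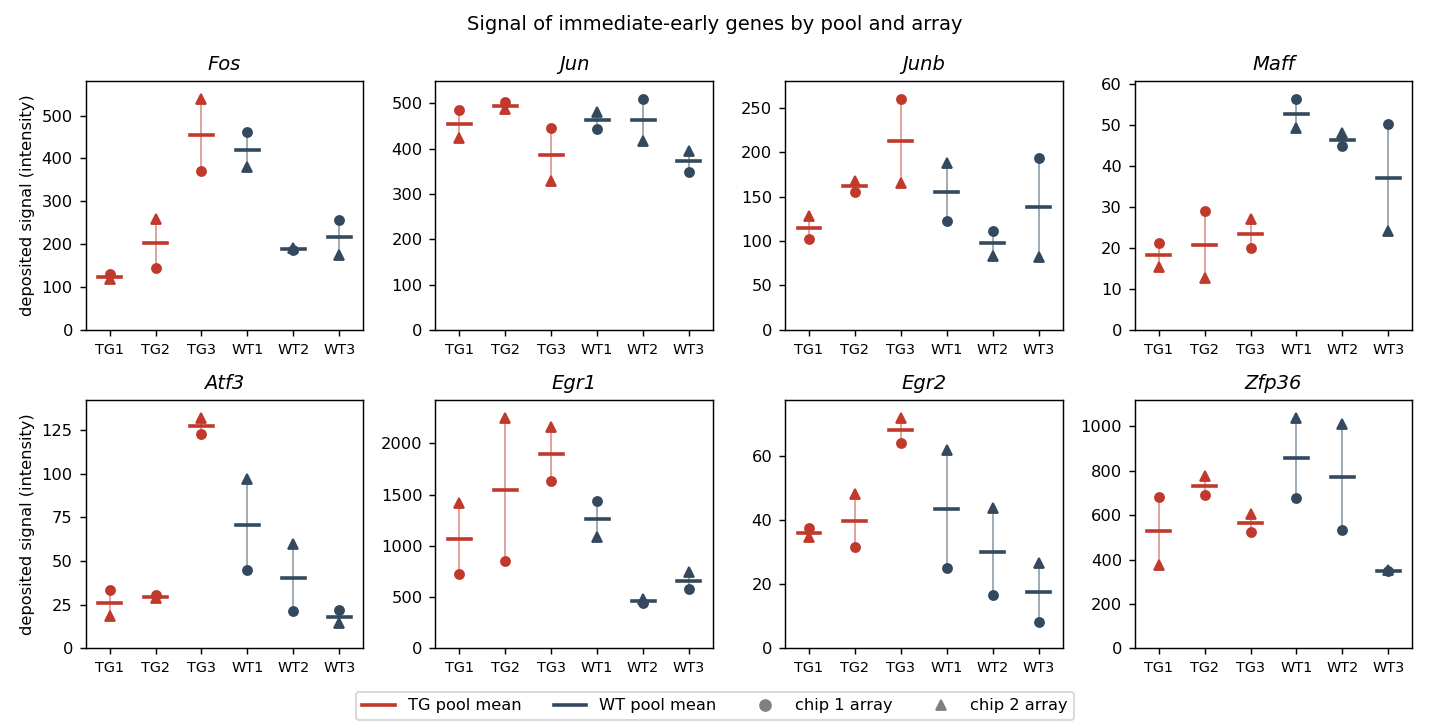
Deposited signal (linear intensity, y axis from 0) of the 8 tested immediate-early genes in 3 TG and 3 WT pools; points are the 2 arrays of a pool, joined by a thin line, and bars their mean. The pools of the genotypes do not overlap for Maff, and Fos and Atf3 range widely within each genotype.

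Egr1, a zinc finger factor induced by growth signals and by contraction, had the highest log2 difference of the members but did not pass. Its signals were 723 and 1414.2 in TG1, 849.6 and 2248.8 in TG2 and 1637.5 and 2161.7 in TG3, against 1437.4 and 1084.6 in WT1, 439.1 and 482.6 in WT2 and 576.8 and 742 in WT3. TG3 and TG2 were the highest pools, WT1 lay above TG1, and WT2 and WT3 were the lowest, so that the genotypes overlapped through 1 pool. The pool means averaged 1506 ± 417 in TG and 793.8 ± 417 in WT (SD, n = 3 pools each). The log2 difference was 0.99 ± 0.31 (SE, 95% interval 0.26 to 1.71, adjusted p = 0.0519 by limma). It passed in 6 of 21 alternatives. With 1 pool left out it passed without WT1 (1.33, adjusted p = 0.0179) and TG1 (1.19, adjusted p = 0.0421), and did not without WT2 (0.70, adjusted p = 0.159), WT3 (0.93, adjusted p = 0.141), TG2 (0.98, adjusted p = 0.114) or TG3 (0.78, adjusted p = 0.0871). It also passed with the pool as a random block (adjusted p = 0.0206) and with a stricter detection filter (adjusted p = 0.049), and not with the pool number as a block (adjusted p = 0.0821). The 6 include the fit with TG3 and WT1 both left out (1.13, adjusted p = 0.00114). That setting was chosen after the data were seen and removes the WT pool that lay above TG1. The difference was 0.92 with WT1 from chip 1 only (adjusted p = 0.0798), also chosen after the data were seen.

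The chips gave unequal values for Egr1. The difference between genotypes was 0.53 on chip 1 alone (adjusted p = 0.339) and 1.44 on chip 2 alone (adjusted p = 0.015). The 3 TG pools were higher on chip 2 than on chip 1, with signal ratios of 1.96, 2.65 and 1.32, against 0.755, 1.10 and 1.29 in the WT pools. The excess of the chip difference in TG was 0.90 ± 0.25 log2 units (SE), with an unadjusted p of 0.0049 and an adjusted p of 0.843 by limma over all tested probes. For Fos the excess was 0.67 ± 0.20 (unadjusted p = 0.00743, adjusted p = 0.843 by limma). By limma 0 tested probes (0%) had a chip difference that depended on genotype after adjustment, and 893 had an unadjusted p under 0.05. Chip 2 differed from chip 1 after adjustment for 0 of 8 members and for 0.00637% of tested probes, with an unadjusted p under 0.05 for 2 members, Egr1 and Egr2, and for 1373 probes.

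Egr2, a relative of Egr1 known from Schwann cells and from lymphocyte activation, was dim. Its signals were 37.6 and 34.7 in TG1, 31.5 and 48.1 in TG2 and 64.1 and 71.9 in TG3, against 25.1 and 61.8 in WT1, 16.7 and 43.7 in WT2 and 8.3 and 26.7 in WT3. The mean signals of TG1 (36.2) and TG2 (39.8) lay below that of WT1 (43.5). After normalisation the 3 TG pools lay above the 3 WT pools, at 6.72 to 7.01 against 6.40 to 6.72 log2 units, so that the lowest TG pool and the highest WT pool were nearly equal. Non-overlap held for 45.2% of all tested probes and, among the members, for Maff and Egr2. The log2 difference of 0.26 ± 0.11 (SE, 95% interval 0.00 to 0.52) did not pass (adjusted p = 0.124 by limma). The probe was detected on 6 of 6 TG arrays and 5 of 6 WT arrays and so was tested through TG, where it was higher, and its values are a description. It was past the threshold in 2 of 20 alternatives, with WT1 from chip 1 only (0.33, adjusted p = 0.0409) and on chip 1 alone (0.38, adjusted p = 0.043), and ranged from 0.14 on chip 2 alone to 0.89 in the authors' deposited table.

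Fos, the inducible partner of JUN in AP-1, varied more between pools of a genotype than between genotypes. Its signals were 129.6 and 119.4 in TG1, 144.1 and 259.7 in TG2 and 369.7 and 537.5 in TG3, against 462.3 and 379.1 in WT1, 186.1 and 190 in WT2 and 257.5 and 174.6 in WT3. The highest and the lowest pool were both TG, and WT1 was the second highest. The log2 difference was -0.07 ± 0.34 (SE, 95% interval -0.85 to 0.72, adjusted p = 0.903 by limma), and differences of either sign within that interval are compatible with these pools. Its sign turned to 0.19 without WT1 and 0.23 without TG1.

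Fosb, a relative of Fos that also pairs with JUN proteins, was near the background. It was detected on 5 of 6 TG arrays and 3 of 6 WT arrays, with signals from 2.1 to 31.2 in TG and from 0.6 to 25.2 in WT. The pool means were 18.9, 9.65 and 25.5 in TG, against 16.8, 12.9 and 11.7 in WT, and the groups overlapped (exact two-sided permutation p = 0.5 on log2 values, where 0.1 is the smallest possible).

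The JUN genes, the partners of FOS, were measured well above background with 1 probe each. Jun had signals of 485.9 and 423.3 in TG1, 502.2 and 487 in TG2 and 445.1 and 328.4 in TG3, against 443.4 and 482 in WT1, 508.6 and 417.2 in WT2 and 349.4 and 394.3 in WT3. After normalisation TG2 and TG1 were the highest pools and TG3 lay among the WT pools. The log2 difference was 0.14 ± 0.12 (SE, 95% interval -0.14 to 0.41, adjusted p = 0.426 by limma). It was 0.05 without TG2, 0.07 without WT3 and 0.26 without TG3, and passed in 0 of 21 alternatives. Junb, which encodes a JUN protein often opposed in action to JUN, had 102.3 and 127.9 in TG1, 155.1 and 167.5 in TG2 and 259.1 and 165.4 in TG3, against 122.3 and 188.2 in WT1, 111.4 and 83.6 in WT2 and 193 and 82.3 in WT3. TG3 and TG2 were its highest pools and TG1 lay among the WT pools, with a log2 difference of 0.27 ± 0.14 (SE, 95% interval -0.05 to 0.60, adjusted p = 0.188). It was 0.16 without TG3, 0.17 without WT2 and 0.41 without TG1, and passed in 0 of 21 alternatives. The other Junb probe was detected on 0 of 12 arrays.

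Atf3, a stress-induced bZIP factor of the ATF/CREB family, was set apart by 1 TG pool. Its signals were 33.6 and 18.3 in TG1, 30.5 and 28.6 in TG2 and 123 and 131.9 in TG3, against 44.6 and 96.8 in WT1, 21.2 and 59.6 in WT2 and 21.9 and 14.3 in WT3. Both arrays of TG3 lay above all others, while TG1 and TG2 lay within the WT range. The log2 difference of 0.18 ± 0.27 (SE, 95% interval -0.43 to 0.79, adjusted p = 0.646 by limma) turned to -0.14 without TG3.

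Zfp36 had signals of 683.9 and 374 in TG1, 690.2 and 776.3 in TG2 and 525.9 and 606.5 in TG3, against 676.7 and 1038 in WT1, 532.6 and 1009.2 in WT2 and 349.1 and 351.1 in WT3. The WT pools enclosed the TG pools, with WT1 highest and WT3 lowest of all 6. The log2 difference was 0.08 ± 0.26 (SE, 95% interval -0.52 to 0.69, adjusted p = 0.837 by limma) and -0.24 without WT3. Ier2, a small nuclear protein gene of the same early response, was detected on 0 of 12 arrays, with signals from -4.9 to 8.4 in TG and from -9 to 10.3 in WT, so that no level was measured in either genotype.

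The members varied more between pools of 1 genotype than most tested probes, as a description with no test. The SD between pools of a genotype was 0.58 log2 units for Fos, 0.53 for Egr1, 0.45 for Atf3 and 0.44 for Zfp36, against a median of 0.11 over all tested probes. Larger values were found for 0.815%, 1.05%, 1.68% and 1.73% of tested probes. Junb (0.22), Jun (0.17) and Egr2 (0.16) were also above the median, and Maff (0.06) was below it. The 2 arrays of a pool, the same RNA per the labels, differed by a root mean square of 0.74 for Egr1, 0.52 for Zfp36, 0.43 for Fos, 0.42 for Junb, 0.31 for Atf3 and 0.30 for Egr2, against a median of 0.20. Maff (0.20) and Jun (0.18) were near it. Over the 5 pools other than WT1 it was 0.80 for Egr1, 0.51 for Zfp36, 0.46 for Fos and 0.44 for Junb. The widest gap within a pool was 1.39 log2 units, for Egr1 in TG2.

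**Figure D3:**
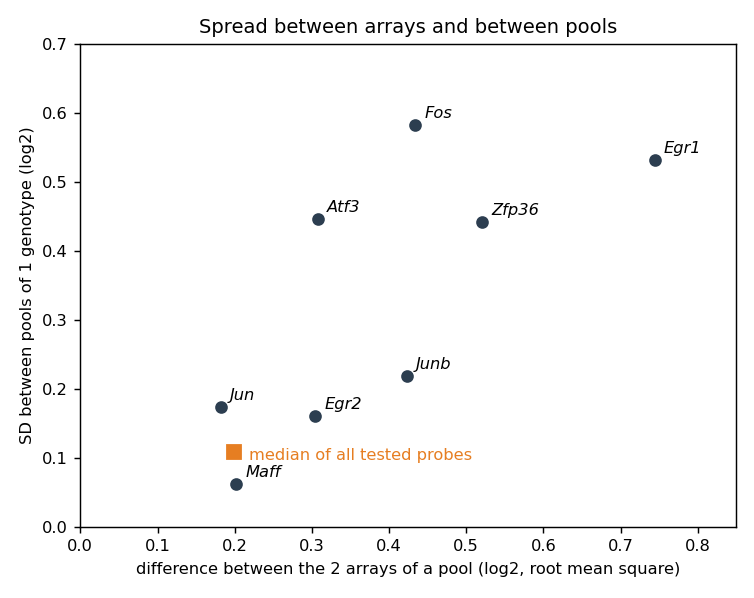
Root mean square difference between the 2 arrays of a pool (x axis, log2) and SD between pools of 1 genotype (y axis, log2) for the 8 tested immediate-early genes, with the median of all 15708 tested probes as a square. Fos, Egr1, Atf3 and Zfp36 lie between 0.44 and 0.58 on the y axis, where the median probe lies at 0.11.

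The TG3 pool was high for most members. Among the TG pools, TG3 was the highest for 6 of the 8 members and TG1 the lowest for 7, where over all tested genes TG3 was the highest for 34.8% and TG1 the lowest for 28.1%. TG3 was the lowest TG pool for 1 member and for 47.7% of all genes. For Maff, TG3 and TG2 were nearly equal (6.463 and 6.458 log2 units). Among the WT pools, WT1 was the highest for 7 of 8, where it was so for 34.7% of all genes. With WT1 from chip 1 only it was the highest for 4 of 8, Fos, Maff, Atf3 and Egr1, and for 37.0% of all genes. Jun and Zfp36 were the members not highest in TG3.

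Macrophage markers were also highest in TG3. Of the 4 tested macrophage markers (Lyz2, Adgre1, Csf1r and Cd14) 0 passed between genotypes, where 28% of all genes did, and the 4 differences were positive with a median of 0.82. Their summed signal was 1079 in TG1, 1150 in TG2 and 5361 in TG3, against 2180 in WT1, 585.5 in WT2 and 580.2 in WT3. Itgam, a further marker on the array, was not tested. In TG3 both arrays were high (5337 and 5386). In WT1 the chip 1 array held 496.4 and the chip 2 array 3863, although the labels give both as the same RNA. The chip 2 array of WT1 was also the higher one for Atf3, Egr2, Zfp36, Junb and Jun, but not for Fos, Egr1 or Maff. On chip 1 and chip 2 the macrophage sum was 407.2 and 763.7 in WT2 and 640.7 and 519.7 in WT3. It was 1140 and 1017 in TG1, and 1087 and 1213 in TG2. The members higher on chip 2 of WT1 were also higher on chip 2 in some other pools. The ratio of chip 2 to chip 1 was 2.81 in WT2 and 2.17 in WT1 for Atf3, and 1.89 and 1.53 for Zfp36. For Atf3 it was 0.65 in WT3, 0.54 in TG1, 0.94 in TG2 and 1.07 in TG3. For Zfp36 it was 1.01, 0.55, 1.12 and 1.15 in the same pools. For Jun it was 1.13 in WT3 and 1.09 in WT1. Egr2 was higher on chip 2 in all 3 WT pools, and Junb only in WT1. The part of macrophage RNA in the values of the members was not tested.

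**Figure D4:**
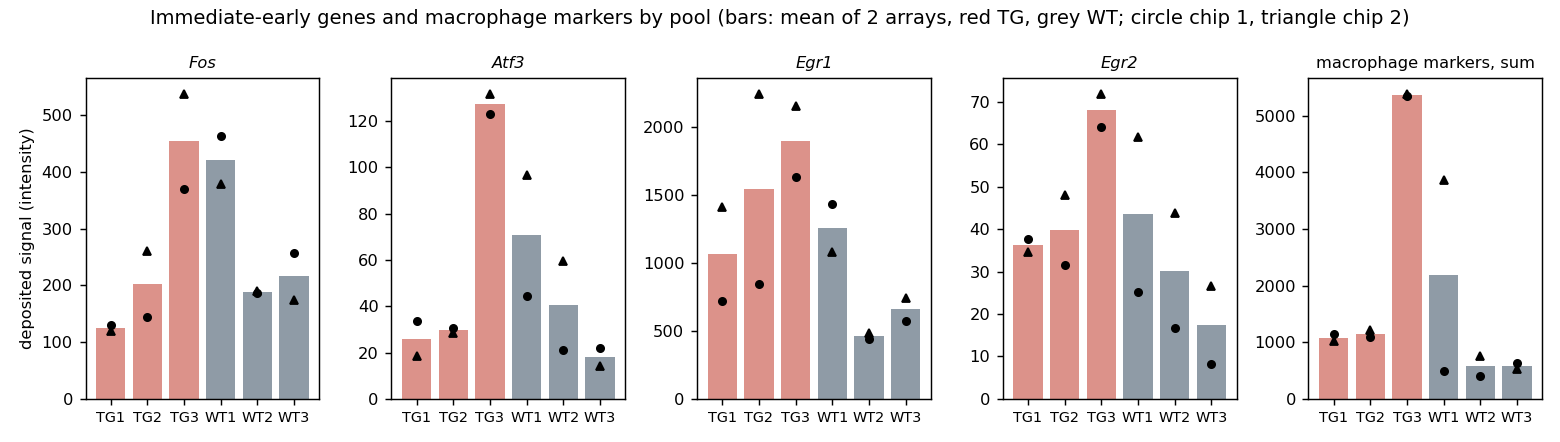
Deposited signal (linear intensity, y axes from 0 and scaled per panel) of Fos, Atf3, Egr1 and Egr2 and the summed signal of 4 macrophage markers; bars are the mean of the 2 arrays of a pool, circles chip 1 and triangles chip 2. TG3 has the highest bar in all 5 panels, and the 2 arrays of WT1 lie far apart for the macrophage markers. Jun, Junb, Maff and Zfp36 are not shown. TG3 was not the highest pool for Jun, Maff or Zfp36, so the panels do not stand for all members.

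The summed signal of fibroblast markers was 22169 to 30285 in TG, with TG3 highest, against 22108 to 24046 in WT, and 0 of 6 passed. Smooth muscle markers summed to 3630 to 5945 in TG, again with TG3 highest, against 3368 to 3834 in WT (0 of 3 passed). Endothelial markers summed to 7446 to 8746 in TG against 6934 to 7716 in WT, with Emcn (log2 0.30 ± 0.07, SE) and Pecam1 (0.35 ± 0.11) called among 5. Neither passed without WT1, WT2, WT3 or TG1, in the authors' deposited table or under 75th percentile scaling. Pecam1 also did not pass without TG2 or TG3. Of its 3 tested probes 1 was called, and the lowest measured -0.08. Heat shock genes summed to 15901 to 17444 in TG against 18566 to 19846 in WT, and 0 of 4 passed. Most of this sum was Hspa8, with 12352 to 12725 in TG and 13812 to 14131 in WT. Hspa1a had 65.8 to 113.2 in TG and 101.1 to 177.7 in WT, and Hspa1b was not tested. The sum is thus no measure of handling. Of the satellite cell markers, Pax7 and Myf5 had no tested probe, and the other 2 summed to 364 to 486.6 in TG and 528.7 to 576.5 in WT, where 0 of 2 passed. The summed signal of 2 blood markers was 23866 to 37563 in TG and 20062 to 28974 in WT (0 of 2 passed), that of 1 tested adipocyte marker 368.6 to 810.4 in TG and 366.7 to 503.4 in WT, and that of 1 Schwann cell marker 571.8 to 1054 in TG and 1008 to 1281 in WT.

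The counts of the lists below stand beside 12.1% higher and 15.9% lower over all 9131 tested genes, and those near these shares say nothing particular to a list. In the list of other AP-1 and small MAF genes, 1 of 8 tested genes rose, 1 fell and 6 did not pass, with a median log2 difference of -0.07. Mafg, the small MAF relative of Maff, fell (log2 -0.57 ± 0.11, SE, adjusted p = 0.0085 by limma), as did its second probe (-0.97). Jdp2, a repressor that pairs with JUN, rose (0.37 ± 0.08, adjusted p = 0.0137). Jund and Fosl2 measured 0.08 and -0.11 and did not pass. Mafg missed the threshold on chip 2 alone (-0.45, adjusted p = 0.0636), and Jdp2 on chip 2 alone and without WT2 or WT3. With no background correction Jdp2 measured 0.65.

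Of the genes that hold the EGR factors in check, Nab1, a corepressor of EGR1 and EGR2, rose. Its signals averaged per pool were 176.9, 215 and 198.4 in TG, against 79.2, 78.1 and 63.1 in WT. The TG pools lay far above the WT pools, with a log2 difference of 0.95 ± 0.08 (SE, adjusted p = 0.000263 by limma), and it passed in all 21 alternatives run, with 1.48 under no background correction. All 3 of its tested probes were called higher (0.39 to 0.95). Egr3, Egr4, Nab2, Nr4a1, Nr4a2 and Nr4a3 were not detected often enough to be tested.

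Of the factors that switch on immediate-early genes, 0 of 6 tested rose, 2 fell and 4 did not pass (median -0.11). Srf, which encodes the serum response factor, averaged 970.7, 956.3 and 948.9 in the TG pools, against 1436, 1651 and 1718 in the WT pools. The genotypes did not overlap, with a log2 difference of -0.57 ± 0.09 (SE, adjusted p = 0.0045 by limma), while its other probe measured -0.04 and did not pass. Elk4, an ETS partner of SRF, fell (-0.70 ± 0.07, adjusted p = 0.000604). Of its 6 probes only 1 was tested. These probes of Srf and Elk4 passed in all 21 alternatives run. Creb1, Crem, Atf1, Elk1, Elk3 and Crebbp had no tested probe.

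In the MAP kinase cascade, which carries the signals to these genes, 3 of 10 rose, 4 fell and 3 did not pass (median -0.04). Mapk9, a JUN kinase (log2 -0.59 ± 0.10, SE), and Araf, a RAF kinase (-0.44 ± 0.08), fell, and Mapkapk2, a kinase below p38 (0.47 ± 0.09), rose. Mapkapk2 was not past the threshold on chip 2 alone or in the authors' deposited table. Mapk9 had a second probe at 0.13 that did not pass, and 2 of 4 Araf probes were called. Of the 9 MAP kinase phosphatases, which end the signal, 3 rose, 3 fell and 3 did not pass (median 0.01). Dusp7 (-0.73 ± 0.08) and Dusp16 (-0.43 ± 0.09) fell and Dusp5 (0.36 ± 0.09) rose. Dusp5, a dim probe, had pool means of 23.05, 36.65 and 50.05 in TG and 13.9, 15 and 10.6 in WT. These WT values lie near the background. Dusp5 was not tested under the strictest detection filter, and its values are a description. Its difference was 1.35 with no background correction and 1.44 in the authors' deposited table. Dusp5 was not past the threshold on chip 2 alone or without WT1, WT2, WT3 or TG2, nor Dusp16 on chip 1 alone or without WT3. Dusp1, itself an immediate-early gene, measured 0.01 and did not pass.

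Among other primary response genes, 1 of 31 tested rose, 6 fell and 24 did not pass, with a median of 0.05. The smallest p were those of the stress-response genes Gadd45b (log2 -0.72 ± 0.13, SE) and Gadd45g (-1.06 ± 0.19) and of the clock gene Per1 (-0.78 ± 0.14), which all fell. Of the 3 tested Per1 probes 2 were called, with differences from -0.78 to -0.28 over the 3. Gadd45b did not pass on chip 2 alone (-0.52), nor Gadd45g (-0.96) or Per1 (-0.54) on chip 1 alone. In the branch that leads to Atf3 through ATF4, 0 of 6 rose, 2 fell and 4 did not pass (median -0.03). Ppp1r15a, which encodes the GADD34 phosphatase subunit (-0.84 ± 0.20), fell but was not past the threshold without WT1, WT2 or WT3 or on chip 2 alone. Atf4 (-0.27 ± 0.08) lost its call when any single pool was left out, with adjusted p from 0.053 to 0.11 by limma.

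**Figure D5:**
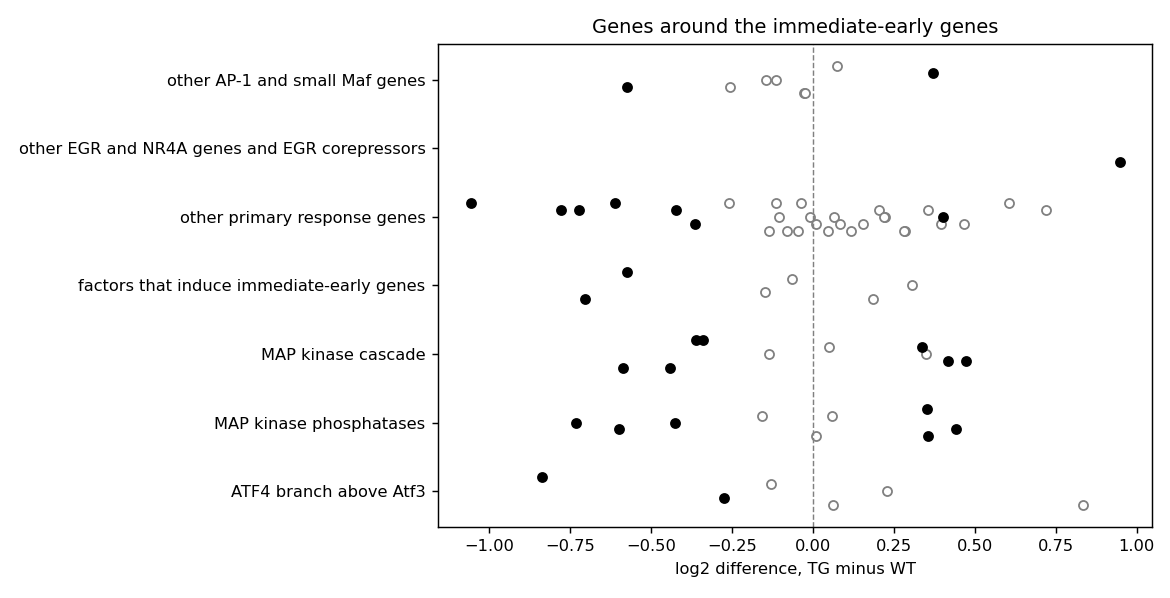
Log2 differences (TG minus WT, x axis) of the tested genes of 7 lists around the immediate-early genes (rows); filled points passed an adjusted p of 0.05 by limma, and vertical offsets within a row carry no meaning. Nab1 lies at 0.95, and Srf and Elk4 at -0.57 and -0.70.

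The genes whose 6 pool means were most like those of a member were sought among 9123 other tested genes, by Pearson r over the 6 pools, which share their arrays and the genotype contrast. For Maff these were Coil (r = 0.999), Ccdc47 (0.998) and Pias4 (0.997). For Fos they were Hsd3b7 (0.998), Sel1l (0.996) and Atp6ap2 (0.996), and for Egr1 Zfp52 (0.990), Flot1 (0.989) and Ube2q1 (0.988). For Atf3 they were Fjx1 (0.996), Pdia3 (0.992) and Plin2 (0.989), for Egr2 Mogs (0.995), Ppm1m (0.992) and Rbmx (0.990), and for Junb Zfp28 (0.988), Psmd10 (0.985) and Zfp738 (0.981). For Jun they were Vsig2 (0.992), Alas2 (0.985) and Nde1 (0.979). For Zfp36 they were the RIKEN transcript 2310010J17Rik (0.975), Dusp1 (0.960) and Gga3 (0.946). With so many genes and 6 points such values are high for many genes, and they are given as a description.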

How the data were processed

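Total RNA was measured on 12 single-colour Illumina arrays. The deposited signals are intensity values that the file headers call non-normalized. Of the deposited intensity values, 29.3% to 32.8% per array lay below 0 and every array had a mean of 472.1, which background subtraction and scaling before deposit would give. The deposited detection column carries a p-value heading, yet its Spearman correlation with the signal was above 0.97 on each array, and it was used as 1 minus the p. The authors' deposited table is in log2 units. Flooring signals at 1, taking log2 and subtracting array 75th percentiles and probe medians gave its values to within 0.00109, and its column medians were -0.251 to 0.0935. The scanner software is unknown here.

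Signals were corrected with normexp (offset 50), quantile-normalised and taken to log2 in limma 3.58.1 (R 4.3.3), and the arrays of a pool were averaged. Per array, 17607 to 19118 probes were detected. TG and WT pools were compared with lmFit and eBayes (two-sided, Benjamini-Hochberg adjustment over 15708 probes), and chips likewise on the 6 chip differences. The code was tested on simulated data. The brightest tested probe stood for a gene. Here 34885 probes had 1 gene symbol, 18 several and 10378 none. The members and lists were chosen with earlier results of these data known. Named are all members, up to 3 called genes of smallest p per list, and the 3 genes most like each member. Jund, Fosl2 and Dusp1, and the called markers, were named after their values were seen. Alternatives changed the background correction, normalisation, detection filter, arrays, pools and blocking (statmod 1.5.0). Promoters are from RefSeq (GRCm38.p6).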

Additional observations from a re-analysis of the deposited data

How the results depend on the processing

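The number of tested members called was 1 of 8 in the analysis reported, where 25.8% of tested probes were called. It was 2 on chip 1 alone (Maff, Egr2, beside 22.2% of probes). It was also 2 in a fit of all 12 arrays with a random term for the pool (Maff, Egr1, 31.2%). With WT1 from chip 1 only (Maff, Egr2, 27.7%) and with TG3 and WT1 both left out (Maff, Egr1, 30.3%) it was 2. These last 2 settings were chosen after seeing the data. The count ranged from 0 to 2 when single pools were left out. It was 0 without WT2 (13.1% of probes), and 2 without TG1 (21.1%) and without WT1 (16.5%). The number of probes called was 4059, and 1454 on chip 2 alone. When single pools were left out it ranged from 2060 without WT2 to 4216 without TG3, with 2586 without WT1 and 2581 without WT3. Higher probes made up 43.6% of the calls, 33.5% with 75th percentile scaling, 29.5% with no normalisation beyond the deposited signals and 51.1% with cyclic loess. The sign of Fos turned to 0.27 on chip 2 alone, 0.23 without TG1, 0.01 without TG2 and 0.19 without WT1. That of Atf3 turned to -0.14 without TG3 and -0.062 with WT1 from chip 1 only and TG3 left out. That of Zfp36 turned to -0.015 with 75th percentile scaling, -0.18 on chip 2 alone, -0.06 without TG2, -0.24 without WT3 and -0.014 with no further normalisation. With single pools left out, Fos ranged from -0.44 to 0.23, Atf3 from -0.14 to 0.35 and Zfp36 from -0.24 to 0.28. No value of these 3 genes passed the threshold, and the causes were not tested. With WT1 from chip 1 only, Fos (-0.11), Jun (0.15), Junb (0.33), Atf3 (0.26) and Zfp36 (0.18) did not pass. Jun, Junb, Egr1, Egr2 and Maff kept their sign in all alternatives in which they were tested. With the pool number as a block 1 member (Maff) was called, and 3103 probes (19.8%). The labels do not say that the numbers pair the pools, and the deviations of same-numbered pools correlated at -0.42, 0.34 and -0.12. Under the strictest detection filter Maff, Egr2 and Atf3 were not tested. Precision is limited by 3 pools per genotype and, for Maff, Egr2 and Fosb, by signals near the background.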
